A study of Caenorhabditis elegans with 24 samples.

Results

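The comparison described here set the *set-9* single mutant against N2, the wild-type strain, in C. elegans at the fourth larval stage (L4). RNA was extracted from whole worms, ribosomal RNA was removed, and 2 libraries were sequenced for each genotype. The *set-9* worms carried *set-9(rw5)*, an allele made by CRISPR with a deletion that leaves a premature stop codon, and N2 carried no mutation. The count table also holds 2 libraries of the *set-26(tm2467)* single mutant and 2 of the double mutant with both alleles, and these 4 libraries were used to estimate the spread between replicates. The paper profiled double mutants of 2 generations, the later one with a far more severe fertility defect. The labels used here do not say which generation these libraries are. Whole worms mix all tissues, so fewer cells of a type and less RNA per cell cannot be told apart. Genes entered the comparison if they had at least 20 reads in at least 1 of the 8 libraries, and 14667 of 46508 genes did. Gene reads summed to 26187811 and 18838700 in the N2 libraries and to 18912747 and 16363189 in the *set-9* libraries. Neither the labels nor the methods say whether replicates came from separate cultures, so p-values measure only the spread between these libraries, which may be technical.

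SET-9 and SET-26 are closely related nuclear proteins with a SET domain and a PHD finger, a fold that can bind methylated histone tails. At L4 the germ line of a hermaphrodite makes sperm before it turns to oocytes, and the epidermis builds the adult cuticle under the larval one. The cuticle is made of collagens that are secreted in waves, each at its own point in the molting cycle, and its outer matrix and its shedding depend on zona pellucida proteins, astacin proteases and hedgehog-related proteins. Levels below are CPM (reads scaled to a common library total, after TMM scaling) and are not divided by gene length, so they compare libraries for 1 gene, not genes with each other. Where reads are given in place of CPM they are unscaled, and every fold change is after scaling.

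The targeted gene was lower in the mutant. *set-9* (chromosome IV, 4307896 to 4317140) had 90.4 and 91.4 CPM in N2 and 46.0 and 39.9 CPM in the *set-9* libraries. It fell by 1.08 on the log2 scale (standard error 0.11, adjusted p = 0.02 by edgeR's quasi-likelihood test), and the ranges of the genotypes did not overlap. It had 115 and 107 CPM in the *set-26* libraries and 30.6 and 33.0 CPM in the double mutant. Of the 50-base stretches in its exons, 33.4% also occur in another gene, most of them in its near-identical paralog *set-26*, so reads of the paralog may be counted at *set-9*.

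At a 5% false discovery rate, 29 genes rose and 39 fell in *set-9* compared with N2, 68 in all. These are 0.198% and 0.266% of the genes tested. Without adjustment, 1947 genes had a p under 0.05, 696 of them higher (4.75% of those tested) and 1251 lower (8.53%) in *set-9*, and the median change of all genes tested was 0.00 on the log2 scale. Of the called genes, 66 were protein coding, as were at least 13797 of the 14667 genes tested. A further count, 25, is of called genes in the gene lists described below. The share of all tested genes in those lists was not counted. Fold changes ran from 1.67 (Y15E3A.5) to 5.75 (C29F3.3) among the genes that rose and, among the 31 that fell and had reads in *set-9*, from 1.98 (*fat-7*) to 8.55 (BE0003N10.6). The calls rest on the spread shared by all 8 libraries. With the N2 and *set-9* libraries alone no gene passed, with 1514 at an unadjusted p under 0.05, and without the double mutant 1 gene passed. Leaving out 1 N2 or *set-9* library leaves 1 library in that genotype. Nearly all of the 68 genes then no longer passed, except in the fit without N2 replicate 1, so which genes passed depended on the library left out. The log2 change ran from 1.09 to 1.35 for *col-10* and from -2.17 to -1.44 for *bli-1* in these fits. All 68 genes kept their direction in each fit named here. The N2 and *set-9* libraries did not overlap at the 60 called genes with reads in *set-9*, and the others were at 0 there after rounding. A reversal was therefore hardly possible, and the kept direction is no separate support.

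**Figure D1:**
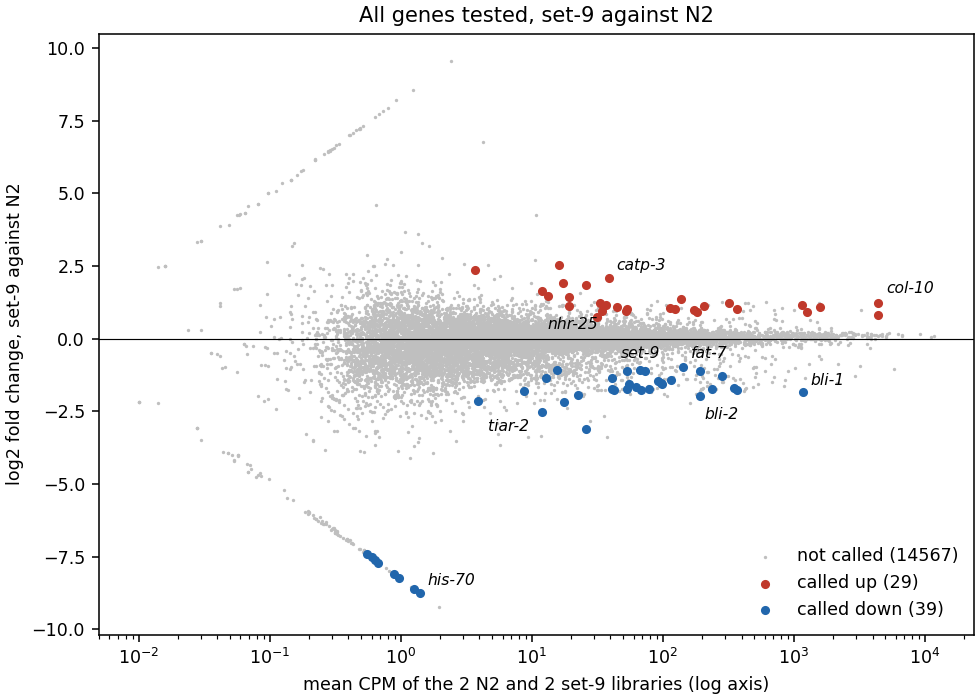
Each point is a gene, with the mean CPM of the 2 N2 and 2 *set-9* libraries on a log axis and the log2 fold change of *set-9* against N2 on the other; 32 genes at 0 in all 4 libraries are not drawn. Red points are the 29 genes called up and blue points the 39 called down, and the 8 blue points below -7 are genes at 0 reads after rounding in both *set-9* libraries.

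Cuticle collagens were the largest group among the called genes. Of 139 tested collagens (col genes and the named bli, dpy, rol, sqt and lon genes), 10 rose and 2 fell, and the group split in both directions: the median change was -0.70, with quartiles at -1.38 and 0.65, beside 0.00 for all genes. Both *set-9* libraries lay above both N2 libraries for 38 collagens (27.3%, against 20.5% of all genes tested) and below them for 58 (41.7%, against 21.4%). At an unadjusted p under 0.05, 29 of the 139 collagens were higher and 45 were lower, against 4.75% and 8.53% of all genes.

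The 10 collagens that rose were *col-10*, *col-144*, *col-3*, *col-117*, *col-166*, *col-167*, *col-168*, *col-170*, *col-180* and *col-125*. *col-10* had 2904 and 2423 CPM in N2 and 5801 and 6587 CPM in *set-9*, a 2.33-fold rise (log2 1.22, standard error 0.13, adjusted p = 0.02). *col-125* had 3511 and 2895 CPM in N2 and 5812 and 5479 CPM in *set-9*, a 1.76-fold rise (adjusted p = 0.041). In these genes, as in all 60 called genes with reads in *set-9*, no N2 library reached the range of the *set-9* libraries. The other 8 collagens rose between 1.87-fold (*col-167*) and 2.31-fold (*col-144*). All 10 were picked by passing the test and most are near copies, as described below, so this narrow range is no separate support.

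Of these 10 collagens, 8 lay in 3 runs of neighbouring genes. On chromosome X, *col-166* (6280016 to 6280921) is followed, past other genes, by *col-167*, *col-168*, *col-169* and *col-170*, which stand side by side between 6323488 and 6332611, all on the plus strand. The log2 changes along this run were 1.08, 0.90, 1.03, 0.98 and 0.93, and *col-169* alone missed the threshold, with 715 and 647 CPM in N2, 1181 and 1499 CPM in *set-9* and an adjusted p of 0.051. The 5 other tested genes between *col-166* and *col-167* were not called and had log2 changes from -0.87 (*cest-16*) to 1.13 (T10E10.10, under 1 CPM in each of the 4 libraries). On chromosome V, *col-144*, *col-145* and *col-10* stand in 5722 bases on the minus strand (9159586 to 9165307), with log2 changes of 1.21, 1.21 and 1.22. *col-145* had an adjusted p of 0.056. On chromosome IV, *col-117* and *col-3* point away from each other with 587 bases between them (8822962 to 8826013), and had log2 changes of 1.04 and 1.13.

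Neighbours in these runs are near copies of each other. In 8 of the 10 collagens, over 60% of the 50-base stretches of the exons occur in another gene as well: 95.9% in *col-3* and 95.2% in *col-117*, which share them with each other, 78.7% in *col-10* and 76.9% in *col-144*, and from 62.3% (*col-166*) to 88.8% (*col-168*) in the run on chromosome X. Their estimated counts may therefore hold reads of their copies, and their like changes are not independent measurements. The exceptions were *col-125* (22.7%), whose exons overlap those of *best-7*, and *col-180* (5.5%). *col-180* had 129 and 101 CPM in N2 and 222 and 238 CPM in *set-9*, a 2.01-fold rise (adjusted p = 0.041).

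The 200 bases before the annotated start of the gene are printed for *col-10* and *col-144* of the run on chromosome V, which share stretches of their exons and rose together, and for *bli-2*, which fell. They were read from the WBcel235 genome of RefSeq, 5′ to 3′ on the strand of the gene, and capitals mark the letters TATAAAA and TGATAA (the latter also as TTATCA on the other strand), of which the first was chosen after the sequences had been read.
*col-10* (chrV:9165308-9165507, minus strand): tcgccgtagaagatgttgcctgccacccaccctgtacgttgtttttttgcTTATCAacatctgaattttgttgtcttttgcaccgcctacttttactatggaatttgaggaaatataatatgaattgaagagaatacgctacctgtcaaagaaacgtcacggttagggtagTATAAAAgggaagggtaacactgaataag
*col-144* (chrV:9160643-9160842, minus strand): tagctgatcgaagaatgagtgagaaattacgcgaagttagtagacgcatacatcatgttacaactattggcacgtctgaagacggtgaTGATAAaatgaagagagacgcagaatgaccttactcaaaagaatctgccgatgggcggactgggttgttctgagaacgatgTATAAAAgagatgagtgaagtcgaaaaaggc
*bli-2* (chrII:5652435-5652634, minus strand): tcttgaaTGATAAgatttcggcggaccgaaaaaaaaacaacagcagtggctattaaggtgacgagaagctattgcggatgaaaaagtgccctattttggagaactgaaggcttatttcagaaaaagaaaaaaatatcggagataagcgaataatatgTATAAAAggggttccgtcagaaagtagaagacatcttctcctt
TATAAAA, read on either strand, stood in the window of 8 of the 10 collagens that rose. It stood in 17.2% of 13797 tested protein-coding genes and in 5 of the 31 that fell and had reads in *set-9*. Of the 28 protein-coding genes that rose, 11 had it (39.3%), but these 28 include the 10 collagens, which give 8 of the 11. TGATAA stood in 5 of the 10, against 23.1% of all. For *col-166*, *col-167*, *col-168*, *col-170* and *col-180* the annotated gene start is where coding starts, so their windows end at the coding sequence, unlike the others. The shares include the near copies, and a match is a description of the letters only. In *bli-2*, a collagen that fell, the window also held both.

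The 2 collagens that fell were *bli-1* and *bli-2*, which form the struts that join the layers of the adult cuticle and whose loss leaves fluid blisters. *bli-1* (chromosome II, 10708960 to 10712156) had 1383 and 2306 CPM in N2 and 521 and 501 CPM in *set-9*, 3.61-fold lower in *set-9* (log2 -1.85, standard error 0.25, adjusted p = 0.039). *bli-2* had 225 and 391 CPM in N2 and 84.1 and 74.1 CPM in *set-9*, 3.89-fold lower (adjusted p = 0.039). The N2 libraries differed between themselves, and N2 replicate 1 was still above both *set-9* libraries for each gene. *bli-1* overlaps the exons of *dph-2*, and whether reads were counted by strand is not given in the sources used here.

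Collagens of the circumferential furrows, which set body shape and report cuticle damage, were lower in *set-9* without passing the test. All 6 (*dpy-2*, *dpy-3*, *dpy-7*, *dpy-8*, *dpy-9* and *dpy-10*) lay below both N2 libraries in both *set-9* libraries, as did 21.4% of all genes tested, with a median log2 change of -1.03 and unadjusted p-values from 7.2e-04 to 0.0067. *dpy-8* had 240 and 346 CPM in N2 and 89.6 and 139 CPM in *set-9* (log2 -1.36, standard error 0.25, adjusted p = 0.071). Replicate 2 was above replicate 1 in both genotypes, by a median of 0.39 on the log2 scale in N2 and 0.58 in *set-9*. Among collagens of body shape, *lon-3* had 5673 and 6972 reads in N2 and 1805 and 1397 reads in *set-9* (log2 -1.69, adjusted p = 0.057), and *rol-6* and *sqt-3* had log2 changes of -1.35 and -1.37 (adjusted p = 0.082 and 0.11).

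**Figure D2:**
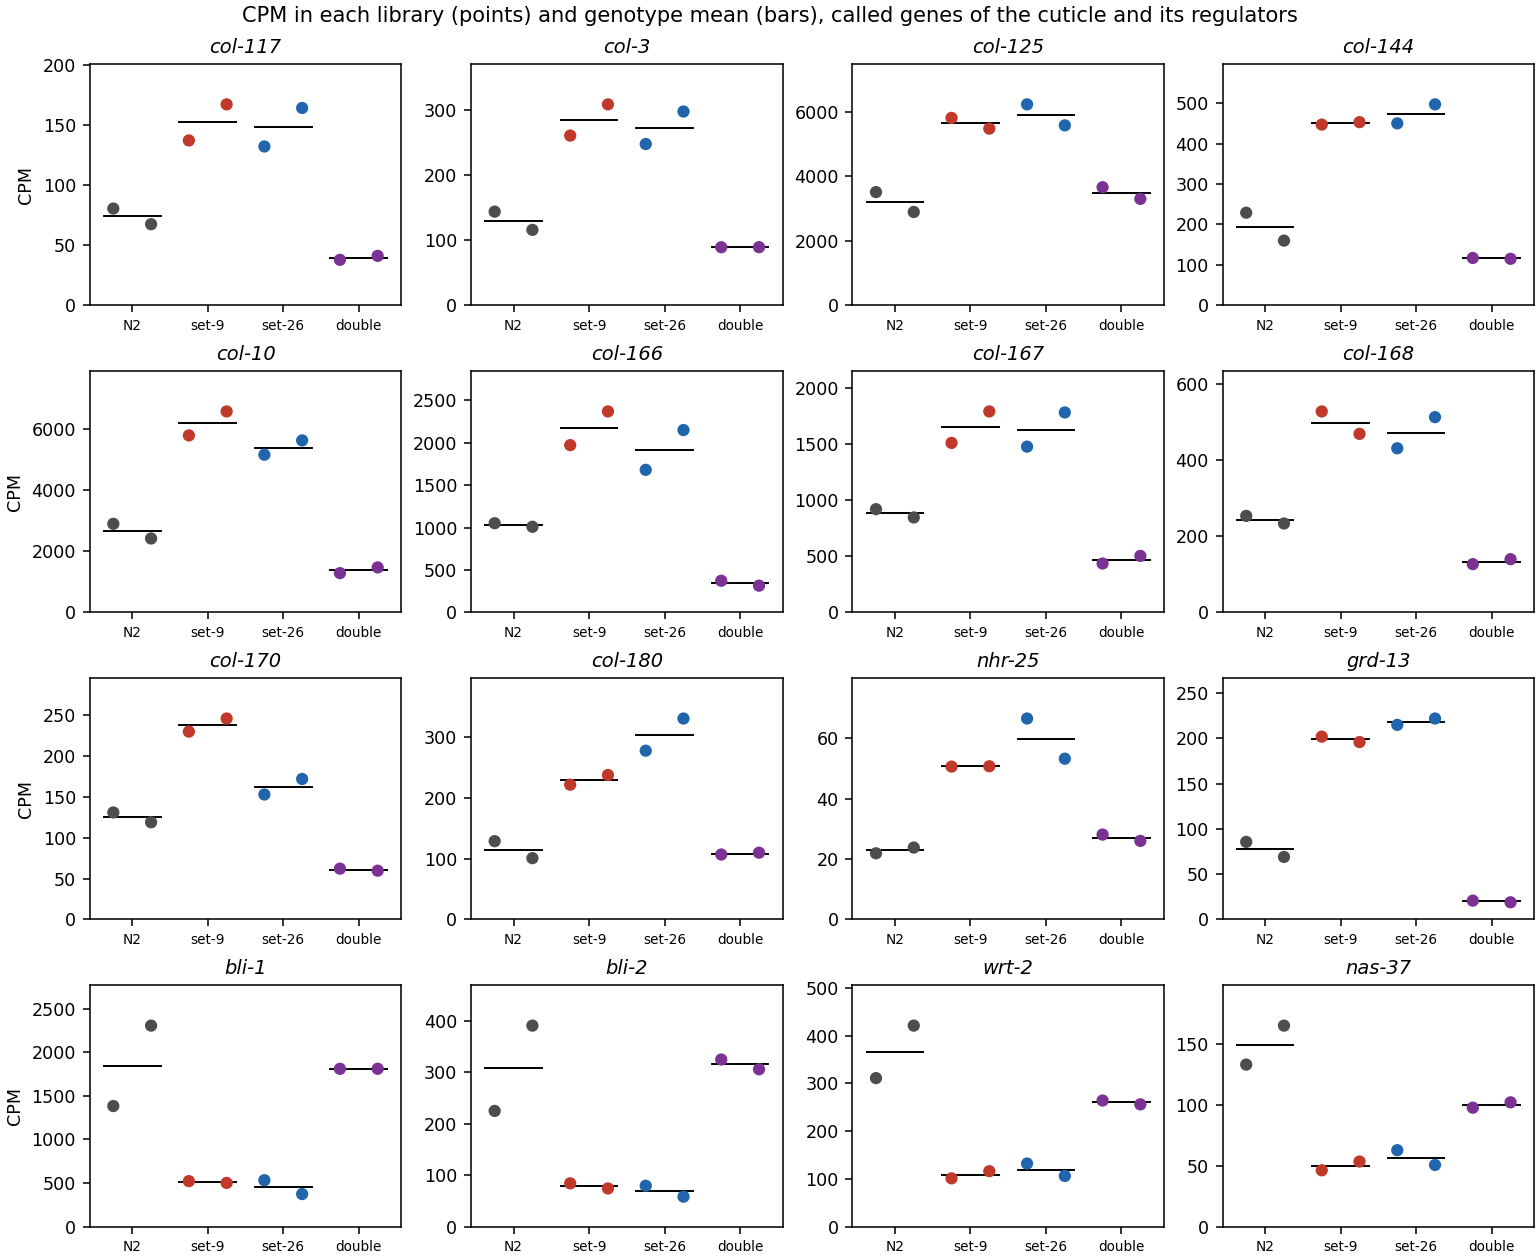
CPM in each of the 8 libraries for 16 called genes; points are libraries, short bars the mean of the 2 libraries of a genotype, and each vertical axis starts at 0. The 10 collagens that rose, *nhr-25* and *grd-13* have both *set-9* points above both N2 points, and *bli-1*, *bli-2*, *wrt-2* and *nas-37* have both below.

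Among 29 genes of the apical matrix and of molting, *nas-37*, an astacin metalloprotease that opens the old cuticle at ecdysis, fell from 133 and 165 CPM in N2 to 46.2 and 53.4 CPM in *set-9* (2.99-fold lower, log2 -1.58, standard error 0.16, adjusted p = 0.02). At an unadjusted p under 0.05, 14 of the 29 were lower and 2 were higher, against 8.53% and 4.75% of all genes, with a median log2 change of -0.43. *mlt-11*, a protease inhibitor of the molting cycle, had 6932 and 8871 CPM in N2 and 3177 and 4401 CPM in *set-9* (log2 -1.06, adjusted p = 0.06), and *noah-1*, a zona pellucida protein of the apical matrix, had 29595 and 27366 reads in N2 and 10176 and 12258 reads in *set-9* (adjusted p = 0.1). Of 24 cuticlin-like genes, *cutl-28* fell, from 11.6 and 15.6 CPM to 3.72 and 3.97 CPM (log2 -1.82, adjusted p = 0.039), and the median of the list was -0.17.

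Hedgehog-related proteins are secreted by the epidermis and act there in molting and trafficking, not as ligands of a complete Hedgehog pathway. Of 38 tested, *wrt-2* of the warthog family fell and *grd-13* of the groundhog family rose. *wrt-2* had 311 and 421 CPM in N2 and 101 and 116 CPM in *set-9*, 3.37-fold lower (log2 -1.75, standard error 0.18, adjusted p = 0.02). *grd-13*, on the list of seam cell genes, had 85.7 and 69.1 CPM in N2 and 202 and 196 CPM in *set-9*, 2.57-fold higher (log2 1.36, standard error 0.13, adjusted p = 0.017). The median of the list was -0.89, and 16 of the 38 were lower and 4 higher at an unadjusted p under 0.05, against 8.53% and 4.75% of all genes. The list differed between replicates as well, with a median of 0.31 for N2 replicate 2 over replicate 1 and of -0.57 for the *set-9* libraries. Of 25 Patched-related proteins, *daf-6*, which shapes the channels of sensory organs, fell from 16.8 and 20.5 CPM to 7.50 and 7.10 CPM (log2 -1.35, adjusted p = 0.026), and *che-14* had a log2 change of -1.24 (adjusted p = 0.056).

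Among 12 regulators of molting, *nhr-25* rose. It encodes the orthologue of the fly nuclear receptor Ftz-F1 and is needed in the epidermis for molting. It had 21.9 and 23.8 CPM in N2 and 50.6 and 50.7 CPM in *set-9*, 2.22-fold higher (log2 1.15, standard error 0.14, adjusted p = 0.028). No other of the 175 tested nuclear hormone receptor genes was called. *nhr-85* had a log2 change of 1.13 (adjusted p = 0.13), and *nhr-23*, a receptor that drives the larval molts, had a log2 change of 0.04. The period homologue *lin-42* had a log2 change of -0.77 (adjusted p = 0.17) and the epidermal factor *grh-1* lay below N2 in both *set-9* libraries (adjusted p = 0.11).

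The largest rises were in genes outside these groups. C29F3.3, which RefSeq annotates with a DUF2807 domain, had 115 and 89 reads in N2 and 577 and 352 reads in *set-9* (5.75-fold, log2 2.52, standard error 0.21, adjusted p = 0.015). *catp-3*, a P-type cation ATPase, had 15.2 and 14.4 CPM in N2 and 65.4 and 60.7 CPM in *set-9* (4.26-fold, log2 2.09, standard error 0.13), and had the lowest adjusted p of all genes, 0.0042. It was the 1 called gene of the 13 tested P-type ATPases, and it was also called without the double mutant (the 1 gene that was). The replicates of *catp-3* stood close together beside the distance between the genotypes.

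C01G10.17 and C01G10.6, which RefSeq annotates as related to fungus-induced proteins, lie with C01G10.5 and C01G10.4 in 3459 bases of chromosome V (15087656 to 15091114). The log2 changes of the 4 genes, from C01G10.6 to C01G10.17 along the chromosome, were 1.65, 1.96, 1.37 and 2.37, and their adjusted p-values 0.026, 0.14, 0.098 and 0.045. For C01G10.17 the N2 libraries held 32 and 20 reads and the *set-9* libraries 101 and 106. Short secreted peptides of the fip, fipr and idpp families had a median log2 change of 0.51 over 39 genes, with 13 higher and 2 lower at an unadjusted p under 0.05 (against 4.75% and 8.53% of all genes) and none called. The 3 of highest level went both ways: *fipr-21* had 832 and 1183 CPM in N2 and 762 and 901 CPM in *set-9* (log2 -0.28, adjusted p = 0.58), *idpp-15* had a log2 change of 0.69 (adjusted p = 0.17) and *fipr-7* one of 0.89 (adjusted p = 0.23). The nlp and cnc antimicrobial peptides of the epidermis had a median of 0.63 over 10 genes, with none called, and *nlp-29*, the best known of them, had 20.4 and 14.4 CPM in N2 and 35.8 and 42.2 CPM in *set-9* (log2 1.16, adjusted p = 0.073). *cnc-3* went the other way, with a log2 change of -0.77 (adjusted p = 0.15).

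Among the other genes that rose were regulators and secreted proteins. *ham-1*, a winged-helix protein of asymmetric neuroblast divisions, had 278 and 171 reads in N2 and 482 and 448 reads in *set-9* (log2 1.44, adjusted p = 0.026). *srlf-34* (log2 1.83, adjusted p = 0.026) has exons that overlap those of *gcy-5*, so its reads are uncertain. W03F9.11 rose 2.73-fold (adjusted p = 0.039). *ttr-8*, a transthyretin-like protein whose exons overlap those of *lgc-12*, had 507 and 355 reads in N2 and 771 and 766 reads in *set-9* (2.31-fold after scaling, adjusted p = 0.039). The pseudogene WBGene00019311 had 6.97 and 7.49 CPM in N2 and 26.3 and 28.6 CPM in *set-9* (3.80-fold, adjusted p = 0.015). The remaining genes that rose were *srap-1*, C39E9.8, *pqn-94*, *pqn-37*, F18E9.3, *asns-2* (asparagine synthetase), *hmbx-1* (a homeobox gene) and Y15E3A.5, between 1.67-fold and 2.24-fold. *asns-2* had 77.2 and 85.8 CPM in N2 and 168 and 164 CPM in *set-9*.

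Among the genes that fell and kept reads in *set-9*, BE0003N10.6 and *tiar-2* changed most. BE0003N10.6, annotated with an FkbM methyltransferase domain, had 29.5 and 63.8 CPM in N2 and 5.67 and 5.21 CPM in *set-9* (8.55-fold lower, log2 -3.10, standard error 0.47, adjusted p = 0.049). *tiar-2*, an RNA-binding protein of the TIA family, had 21.7 and 19.3 CPM in N2 and 3.78 and 3.39 CPM in *set-9* (5.70-fold lower, log2 -2.51, standard error 0.18, adjusted p = 0.0091). The N2 libraries stood apart from each other in BE0003N10.6 and close together in *tiar-2*, and in both genes they were well above the *set-9* libraries. *osr-1*, named for the osmotic stress resistance of its mutants, fell from 20.4 and 37.6 CPM to 5.72 and 6.97 CPM (log2 -2.19, adjusted p = 0.049). T26E4.4, annotated as a fucosyltransferase, fell 4.44-fold, from 174 and 103 reads to 30 and 18 (adjusted p = 0.039).

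Genes of lipid metabolism and proteolysis were few. *fat-7*, a *delta-9* desaturase that makes oleic acid, had 192 and 188 CPM in N2 and 105 and 86.1 CPM in *set-9* (log2 -0.99, standard error 0.15, adjusted p = 0.049), and was the 1 called gene of 66 tested for fatty acid metabolism. *fcmt-1*, which RefSeq annotates as a cyclopropane-fatty-acyl-phospholipid synthase, had 99.6 and 102 CPM in N2 and 48.1 and 45.9 CPM in *set-9* (log2 -1.10, standard error 0.10, adjusted p = 0.015). *asp-12*, an aspartyl protease, fell from 1842 and 1288 reads to 666 and 469 reads (adjusted p = 0.028). The replicates of these 3 genes stood close together, and no N2 library came near the *set-9* range.

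The remaining 17 genes that fell and kept reads in *set-9* had log2 changes from -1.07 (C44B9.2) to -1.95 (T06G6.6). B0393.5 is annotated as nidogen, H42K12.3 and T26C5.2 with apple domains, and R07E3.6 as a prion-like Q/N-rich protein. R07E3.6 had 447 and 617 CPM in N2 and 162 and 165 CPM in *set-9* (log2 -1.70, standard error 0.17). The others were F23H12.5, T27A10.6, F59B10.5, Y102A11A.5, M03B6.3, K08B12.1, *cbn-1*, Y46G5A.29, *sups-1*, Y43D4A.5 and F58H1.2. In 27 of the 31 genes that fell and kept reads in *set-9*, N2 replicate 2 was above N2 replicate 1, and in 21 of the 29 genes that rose it was below. The same shares over all genes tested were not counted. Over all genes tested the median log2 ratio of N2 replicate 2 to replicate 1 was 0.01.

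A further 8 genes were called down with counts that are 0 after rounding in both *set-9* libraries, 4 of them listed at exactly 0 and 4 at estimates of up to 0.116 of a read: *his-70* (a histone H3.3-like gene), *ncx-7* (a sodium-calcium exchanger), *wht-4* (an ABC transporter), *arrd-28* (an arrestin-domain protein), F53B2.5 (annotated as importin alpha), R12B2.3, K06A1.2 and the pseudogene WBGene00008487. The reads of *his-70* numbered 61 and 57 in N2, 72 and 40 in *set-26* and 105 and 108 in the double mutant. For *ncx-7* the N2 libraries held 68 and 42 reads, the *set-26* libraries 43 and 17, and the double mutant 42 and 33. *wht-4* had 22 and 27 reads in N2 and 98 and 108 in the double mutant. All 8 were thus read in the double mutant, which carries a *set-9* mutation too. F53B2.5 overlaps a piRNA gene, 6.15% of the 50-base stretches of *ncx-7* also occur in another gene, most of them in *ncx-6*, and *his-70* shares none with another gene. Genes at 0 after rounding in both libraries of 1 genotype, with 20 or more reads in each of the other 6 libraries, numbered 7 in *set-9* (6 of them called), 0 in N2, 1 in *set-26* and 0 in the double mutant. Zeros in a single library also occur in this table: from 0 to 14 genes per library are at 0 after rounding there and at 20 or more reads in each of the other 7, with 5 and 6 such genes in the N2 libraries and 7 and 14 in the *set-9* libraries. Among them is *rha-1*, an RNA helicase of the germ line, with an estimate of 0.0549 of a read in N2 replicate 1 and 148 in N2 replicate 2, a gene picked after its values were seen. A value at or near 0 in these estimates can be a failed estimate, so no fold change is given, and without these 8 genes the down-regulated genes number 31.

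Lists of sperm genes had medians below 0 in *set-9*, with N2 and *set-9* libraries that overlapped for many members and no gene called. Of 29 tested major sperm protein genes, which encode the cytoskeletal and signalling protein of nematode sperm, none was called, 17 were lower and 0 higher at an unadjusted p under 0.05, against 8.53% and 4.75% of all genes, and the median log2 change was -1.20. Both *set-9* libraries lay below both N2 libraries for 15 of the 29 (51.7%, against 21.4% of all genes). Shared stretches were counted for called genes only, so how far these 29 genes may hold reads of each other was not tested. Their summed level was 703 and 275 CPM in N2 and 289 and 125 CPM in *set-9*, so N2 replicate 2 lay within the *set-9* range. N2 replicate 2 differed from replicate 1 by a median of -1.20 over these genes, as much as the genotypes differed. *msp-142* had 59.9 and 28.9 CPM in N2 and 27.8 and 13.4 CPM in *set-9* (log2 -1.11, standard error 0.44, adjusted p = 0.33). Over 27 spe and fer genes the median was -0.73, with 10 lower and 0 higher at an unadjusted p under 0.05, against 8.53% and 4.75% of all genes. Of the 27, 15 lay below N2 in both *set-9* libraries (55.6%, against 21.4% of all genes). The N2 libraries differed less there, by a median of -0.26. The 3 of highest level were *spe-39* (log2 -0.05, adjusted p = 0.92), *spe-48* (log2 0.16, adjusted p = 0.61) and *fer-1*. *fer-1*, needed for fusion of membranous organelles in sperm, had 27.8 and 33.4 CPM in N2 and 17.6 and 19.3 CPM in *set-9* (log2 -0.73, standard error 0.14, adjusted p = 0.08). Of 43 genes of small sperm protein families, 15 were lower and 0 higher at an unadjusted p under 0.05, against 8.53% and 4.75% of all genes. Of the 43, 12 had a log2 change above 0, and the median was -0.86. Those of highest level were *nspc-4* (log2 0.21), *nspc-14* (log2 0.04) and *nspd-1* (log2 -1.01, adjusted p = 0.43).

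The 6 vitellogenins, the yolk proteins that the intestine makes toward adulthood, summed to 13936 and 5864 CPM in N2 and to 5519 and 1913 CPM in *set-9*, with a median log2 change of -1.51 and none called. *vit-6* had 5840 and 2471 CPM in N2 and 2499 and 903 CPM in *set-9* (adjusted p = 0.5). The replicates within a genotype differed by a median of -1.22 in N2 and -1.84 in *set-9*, beside -1.51 between the genotypes. For oocytes and eggshell, 19 genes had a median of -0.24 and none called, and the replicates differed there by -0.76 in N2 and -0.58 in *set-9*. What part such differences between replicates have in the sperm and yolk values was not tested. Germ-line genes of mitosis and meiosis did not move as a group: 30 had a median of -0.06 with none called and 1 at an unadjusted p under 0.05, and *gld-1*, a translational repressor of meiotic germ cells, had 556 and 375 CPM in N2 and 467 and 348 CPM in *set-9* (log2 -0.19, standard error 0.22).

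The medians for muscle, neurons, intestine and pharynx stayed near that of all genes. Median log2 changes were 0.10 for 20 genes of body wall muscle, 0.07 for 24 of neurons, 0.15 for 19 of intestine and 0.13 for 13 of pharynx, with none called in each. *unc-54*, the major myosin heavy chain of body wall muscle, had 10862 and 12062 CPM in N2 and 11664 and 12825 CPM in *set-9*. The hypodermis list, with 13 genes, had 1 gene up (*nhr-25*) and 1 down (*bli-1*) and a median of 0.01, with quartiles at -0.96 and 0.18. Its summed level, *bli-1* included, was 4630 and 5203 CPM in N2 and 2945 and 2882 CPM in *set-9*. The seam cell list, with 9, had *grd-13* up and a median of 0.23. Summed with *grd-13*, its level was 276 and 278 CPM in N2 and 426 and 481 CPM in *set-9*. Ribosomal proteins had a median of 0.12 over 83 genes with none called, and 47 of them had both *set-9* libraries above both N2 libraries (56.6%, against 20.5% of all genes), a small shift in 1 direction: *rpl-36* had 5022 and 4896 CPM in N2 and 5760 and 5564 CPM in *set-9*. For 33 proteasome subunits the median was -0.11. Of 15 factors of H3K4 methylation none was called, and *set-2*, the main H3K4 methyltransferase, had a log2 change of -0.10 (standard error 0.11, adjusted p = 0.77). No call fell among 89 neuropeptides, 109 C-type lectins or 152 F-box and MATH-BTB genes, with medians of 0.10, 0.03 and -0.02. None of 15 DAF-16 targets and none of 7 heat-inducible chaperone genes was called either.

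**Figure D3:**
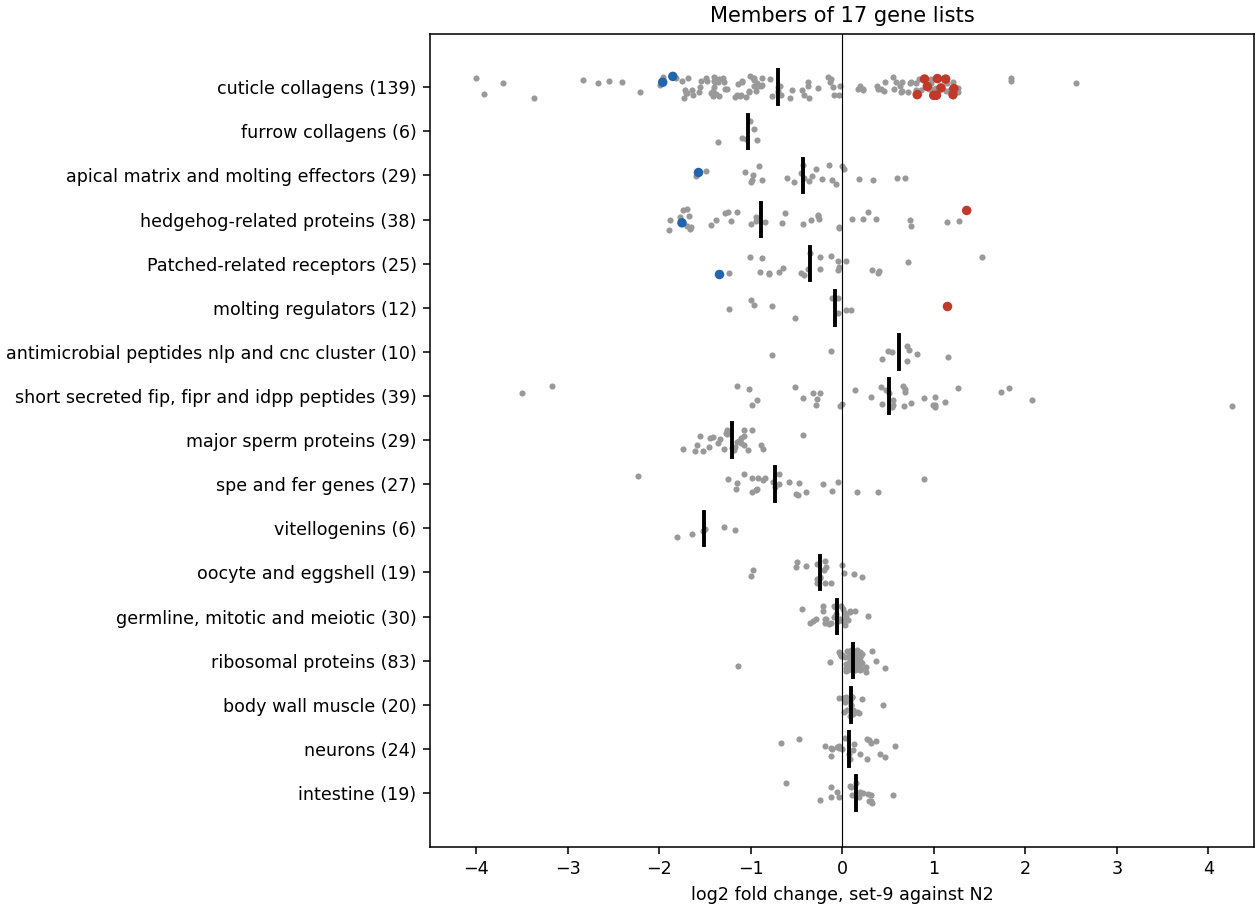
Log2 fold change of *set-9* against N2 for the tested members of 17 gene lists (number of genes in parentheses); grey points are genes not called, red called up, blue called down, and black bars the median of each list. Collagens spread to both sides of 0, major sperm proteins and vitellogenins lie below 0, and muscle, neurons and intestine lie around it; 2 points beyond 4.5 are not drawn.

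The genes called in *set-9* were read side by side in the other mutants, which share the N2 libraries, so these positions are not independent of the calls. All 29 genes that rose were above N2 in both *set-26* libraries as well, against 23.1% of all genes tested, and 31 of the 39 that fell were below N2 in both, against 22.9%. The 39 include the 8 genes at 0 after rounding in *set-9*, whose estimates may have failed. Compared directly, *set-9* and *set-26* differed at 102 genes (0.695% of those tested, 37 higher and 65 lower in *set-9*), among them 2 of the 29 and 10 of the 39. The 2 were *catp-3* (1999 and 2156 reads in *set-26*, beside 1177 and 932 in *set-9*) and *srlf-34*, both still higher in *set-26*. The 10 were *set-9* itself, C44B9.2, *fcmt-1* and 7 of the 8 genes at 0 after rounding. For C44B9.2 the *set-9* libraries held 183 and 155 reads, the *set-26* libraries 428 and 370, and the N2 libraries 580 and 346, and its exons overlap those of C44B9.3. For *col-170*, the direct difference was 0.55 on the log2 scale (standard error 0.11) with an adjusted p of 0.076.

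The double mutant, whose generation the labels do not give, lay below N2 at most of the genes that rose in *set-9*. It shares the N2 libraries with the calls. In 22 of the 29 both of its libraries were below both N2 libraries, against 29% of all genes tested, and in 5 they were above, against 30.4%. *grd-13* had 393 and 372 reads there, beside 2175 and 1219 in N2 and 3632 and 3016 in *set-9*. Of the 31 genes that fell and kept reads in *set-9*, 27 were higher in both double mutant libraries than in both *set-9* libraries, against 34.4% of all genes tested. These genes were called because the *set-9* libraries were low, which by itself favours higher values in the double mutant. The 2 shares are therefore not a like comparison. Of the 31, 16 were below both N2 libraries in the double mutant, against 29% of all genes tested. *bli-1* had 1810 and 1811 CPM in the double mutant, between the N2 libraries. Of all the genes that rose, *catp-3* was 1 of 5 above N2 in all 3 mutants, with 61.6 and 56.3 CPM in the double mutant.

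**Figure D4:**
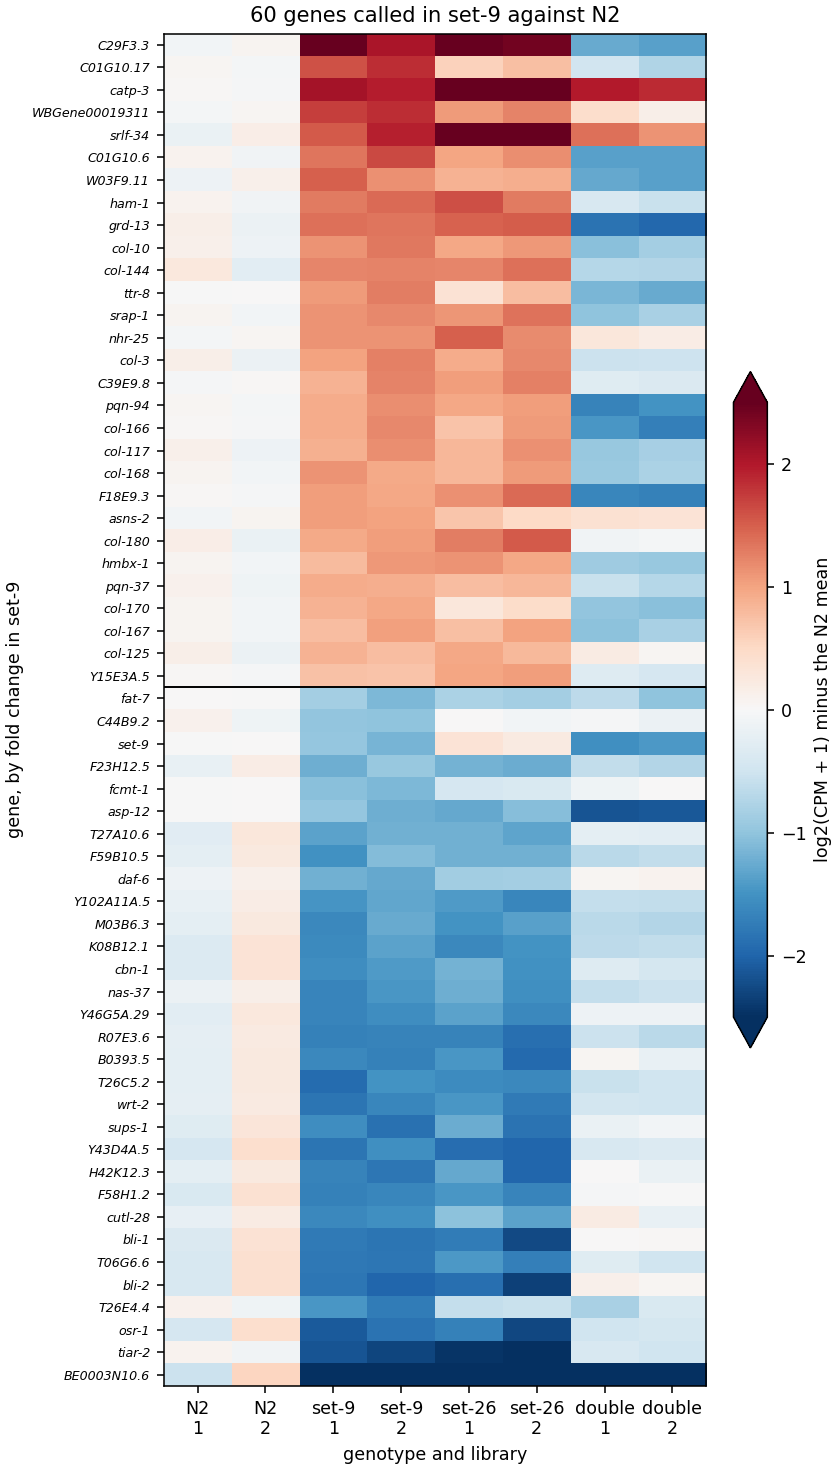
The 60 called genes with reads in *set-9* (rows, ordered by fold change in *set-9*, with a line between those that rose and those that fell) in the 8 libraries (columns); colour is log2(CPM + 1) minus the mean of the 2 N2 libraries, capped at 2.5 either way. The *set-26* columns lie above N2 at all 29 genes that rose, and the double mutant columns are blue at 22 of the 29 genes that rose.

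Called genes lay on all 5 autosomes and on X. X held 20 of them among 2044 tested genes (0.978%), chromosome II 13 of 2454 (0.53%), chromosome V 14 of 2862 (0.489%), chromosome IV 11 of 2489 (0.442%), chromosome III 7 of 2254 (0.311%) and chromosome I 3 of 2378 (0.126%). The run of collagens from *col-166* to *col-170* gave 4 of the 20 on X. The exons of 20 called genes overlap another annotated gene, and 22 share at least 1 stretch of 50 bases with another gene, 11 of them over 10% of their stretches. Besides those named above with an overlap, the 20 include *nas-37* (with C17G1.5), *wrt-2* (*pccb-1*), *fcmt-1* (VF13D12L.3), *osr-1* (*pde-5*) and C01G10.6 (C01G10.18). The reads of these genes are uncertain in the same way.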

How the data were processed

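The deposited table holds estimated counts per gene, which the authors obtained with Cufflinks after trimming (cutadapt), removal of rRNA and tRNA matches by Bowtie and alignment to WS250 by TopHat2, with replicates kept apart. Whether reads were counted by strand is not given in the sources used here. Values were rounded to whole numbers, and 93 entries that are landmarks rather than genes were left out. edgeR 4.0.16 (R 4.3.3) fitted a quasi-likelihood model with 1 mean per genotype over all 8 libraries after TMM scaling, for genes reaching 20 reads in 1 library or more, and p-values were adjusted by Benjamini-Hochberg at 5% (0.05), two-sided. The model was also run on simulated counts, after the main fit and with the dispersions of that fit, and the outcome is not given here. A called gene is one past this threshold. The spread is a standard error of the log2 fold change, the size of the change divided by the square root of the F statistic. Gene positions, overlaps and product names come from the WBcel235 annotations of Ensembl and RefSeq, and shared stretches are exact matches of 50 bases on either strand. A count of 3 reads, 0.118 to 0.195 CPM, was taken as the least a library could show, and depth covers counting error only.

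The genes, lists and tests were chosen with earlier results of these data known. Named are *set-9*, the 12 largest and 12 smallest changes among called genes (both libraries of the higher genotype at 20 reads or more, pairs of equal number moving alike), every called gene of a list, called genes at 0 in 1 group, and up to 3 members of highest CPM in a list with no call. The remaining called genes are named too. Other genes, which are neighbours of called genes or members of lists named with an adjusted p above 0.05, were picked after their values were seen. Alternatives were DESeq2 1.42.0 and other tests, scalings and filters, a replicate block and leaving out libraries. The ChIP-seq data were not analysed here, nor was the expression of the *set-26* gene. The windows before the other collagens are not reported here.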

Additional observations from a re-analysis of the deposited data

Results flagged for a closer look

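The *set-9* and *set-26* mutants differed in a direct test at 12 of the genes called in *set-9* against N2, by edgeR's quasi-likelihood test with the p-value adjusted over all genes. *catp-3* (adjusted p = 0.046) and *srlf-34* (adjusted p = 0.049) were higher in *set-26* than in *set-9*. *set-9* (adjusted p = 0.0094), C44B9.2 (adjusted p = 0.037) and *fcmt-1* (adjusted p = 0.037) were lower in *set-9* than in *set-26*. The other 7 have 0 reads after rounding in both *set-9* libraries: K06A1.2, *wht-4* and WBGene00008487 (adjusted p = 0.025 each), *his-70* (0.019), F53B2.5 (0.029), *arrd-28* (0.039) and *ncx-7* (0.049). No group had more than 2 libraries, so no search for outlying samples was made.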

How the results depend on the processing

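The number of called genes changed with the test, the filter and the libraries in the fit. Each of the 68 genes kept its sign in every alternative that tested it. The lack of overlap between the N2 and *set-9* libraries at these genes left little room for another outcome. Counts below are genes up and down in *set-9*, genes that differ between *set-9* and *set-26*, and cuticle collagens up and down, and 29, 39, 102, 10 and 2 are the counts as reported. DESeq2's Wald test gave 146, 356, 459, 25 and 25, the edgeR likelihood ratio test 201, 526, 662, 25 and 28, and the edgeR exact test 171, 462, 575, 25 and 26, and each of the 3 held all 68 called genes. With no filter the counts were 176, 570, 599, 25 and 43, and with 20 reads in every library 44, 64, 115, 13 and 5, of which 57 of 57 tested calls remained. With the N2 and *set-9* libraries alone no gene was up or down and no collagen was called (0 and 0), and without the double mutant the counts were 1, 0, 2, 0 and 0. Leaving out 1 N2 or *set-9* library at a time gave 0 to 31 genes up, 0 to 84 down, 2 to 59 that differ from *set-26*, and 0 to 10 collagens up and 0 to 10 down. With a replicate block, libraries of the same number paired, the counts were 70, 126, 308, 17 and 16 and all 68 genes stayed called, but the labels do not say that numbers pair libraries, and deviations of same-numbered libraries correlated at 0.205 between N2 and *set-9* and at 0.0464 to 0.199 between the other genotypes. DESeq2 size factors, upper quartile scaling, filterByExpr and a 2-fold limit kept each count within 1.5 times, and these scalings moved the median of all genes by at most 0.022. All 6 furrow collagens were called down by DESeq2, the exact and likelihood ratio tests, the block and the fit with no filter. With 2 libraries per genotype, leaving 1 out assumes that the lone library varies like the other genotypes. The cause of these differences in count was not tested.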
